A study of Mus musculus with 8 samples.

Results

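Bloodlinc, the long noncoding RNA that gives the series its name, and 8 protein-coding genes around it on mouse chromosome 11 were read in all 8 RNA-seq libraries of the study. The 9 genes were taken by name: Bloodlinc through its Ensembl ID (ENSMUSG00000087330), and Slc4a1, Ubtf, Rundc3a, Slc25a39, Grn, Atxn7l3, Tmub2 and Asb16 through their symbols. All 9 were found among the 37620 gene IDs of the count tables. In GENCODE M21 they are also the only genes with an ID in those tables inside the 168306 bp that run from Asb16 to Grn.

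The libraries came from erythroid progenitors of C57BL/6 mouse fetal livers at E14.5, obtained by magnetic sorting, transduced with hairpins or expression vectors, and kept for 24 h in medium with erythropoietin. The groups were Bloodlinc hairpins 1 and 2 against a control hairpin, hnRNPU hairpins 1 and 2 against a second control hairpin, and a Bloodlinc vector against an empty vector. Each hairpin, control and vector had 1 library, so the 2 hairpins against a target are the only repeats within a group. Nothing states that they came from separate cultures, so p-values reflect nothing but the spread of these particular libraries, which may be technical.

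Erythroid progenitors that receive erythropoietin divide a few last times, fill with hemoglobin and build the membrane of the red cell. Band 3, the product of Slc4a1, is the most abundant integral protein of that membrane: it exchanges chloride for bicarbonate and ties the membrane to the spectrin skeleton through ankyrin. Long noncoding RNAs made near such a gene can act on their neighbours in cis or on distant genes in trans. The comparisons below ask whether the genes around the Bloodlinc locus differed when Bloodlinc, or the nuclear RNA-binding protein hnRNP U, was reduced, and when Bloodlinc was supplied from a vector.

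Bloodlinc lies on the minus strand at chr11:102375549-102377020 (GRCm38). It is 9345 bp from the 5′ end of Slc4a1, which is read from the same strand, and 16382 bp from Rundc3a on the other side. The order along the chromosome is Asb16, Tmub2, Atxn7l3, Ubtf, Slc4a1, Bloodlinc, Rundc3a, Slc25a39 and Grn. Asb16, Tmub2, Rundc3a and Grn are on the plus strand and the others on the minus strand. Tmub2 and Atxn7l3 end 62 bp apart and Rundc3a and Slc25a39 end 429 bp apart, each pair pointing at one another, and Grn overlaps the convergent Fam171a2 by 68 bp. The strand setting of the counting is not given in the sources used here, so reads that run past an end could be counted for the partner.

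The annotated Bloodlinc transcript has 3 exons and 679 nt, of which 53.9% are G or C. Its first and second exons are shown because they are part of the sequence that the Bloodlinc counts stand for. They were read from GENCODE M21 at chr11:102376803-102377020 and chr11:102376303-102376421, 5′ to 3′ along the minus strand of GRCm38. Capitals mark GATA and CACCC or their reverse complements TATC and GGGTG, the cores of the motifs bound by GATA1 and KLF1, both central erythroid factors.

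Bloodlinc exon 1: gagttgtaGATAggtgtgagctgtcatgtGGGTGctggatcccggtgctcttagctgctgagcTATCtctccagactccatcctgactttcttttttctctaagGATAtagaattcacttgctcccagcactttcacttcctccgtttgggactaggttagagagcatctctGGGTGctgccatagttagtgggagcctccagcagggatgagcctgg

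Bloodlinc exon 2: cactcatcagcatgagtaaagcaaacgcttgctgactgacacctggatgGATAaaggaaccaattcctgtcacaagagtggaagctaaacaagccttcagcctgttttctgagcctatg

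Exon 1 held 3 GATA and 2 CACCC matches, exon 2 held 1 GATA match and no CACCC match, and exon 3, of 342 nt, held 1 CACCC match and no GATA match. The longer form AGATAA, which contains GATA, was in none of the 3 exons. RefSeq promoter windows of GRCm38.p6, running from 250 bases before to 50 bases after a start, were found for 5 of the 9 genes, as 10 entries, 6 of them for Ubtf. The windows of Slc25a39 (chr11:102407468-102407767, minus strand) and Grn (chr11:102430257-102430556, plus strand) are shown because Slc25a39 and Grn are the neighbours with the widest range of levels among the genes that have a window and more than 3 counts in every library. Capitals mark the same motifs.

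Slc25a39 promoter: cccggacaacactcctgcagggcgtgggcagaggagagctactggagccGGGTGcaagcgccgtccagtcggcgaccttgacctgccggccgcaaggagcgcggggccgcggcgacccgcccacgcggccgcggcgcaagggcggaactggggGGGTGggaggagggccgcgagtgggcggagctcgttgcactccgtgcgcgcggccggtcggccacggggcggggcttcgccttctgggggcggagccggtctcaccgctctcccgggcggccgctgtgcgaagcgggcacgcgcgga

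Grn promoter: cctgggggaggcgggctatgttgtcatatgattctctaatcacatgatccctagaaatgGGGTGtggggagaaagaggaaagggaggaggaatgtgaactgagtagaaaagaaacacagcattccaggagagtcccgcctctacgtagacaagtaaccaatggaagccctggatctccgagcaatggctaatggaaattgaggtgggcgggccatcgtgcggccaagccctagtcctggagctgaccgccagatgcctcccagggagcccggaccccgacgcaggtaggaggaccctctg

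The Slc25a39 window held 2 CACCC matches and the Grn window 1, and neither held a GATA match. The windows of Asb16 and Atxn7l3 likewise held 2 CACCC matches each and no GATA match. Of the 6 Ubtf windows, 2 held a GATA match and 4 held a CACCC match, 1 in each. Over all 32851 RefSeq promoter windows of the same length, 57.9% held GATA on either strand, 57.5% held CACCC and 11.2% held AGATAA, so either short motif is present in most windows. A match is a description of the letters and not a bound site.

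Counts in genes ran from 23682993 to 34540691 in 6 libraries, but came to 2931627 and 2612916 with hnRNPU hairpins 1 and 2. There, 89.7% and 86.6% of the counts with a single position fell outside annotated genes (21.7% to 30.1% elsewhere), and gene IDs absent from the annotation took 32.9% and 23.1% of the gene counts, against 0.695% to 1.45%. Every hnRNPU knockdown value below rests on them. The SEs, p-values and calls of the Bloodlinc knockdown draw on them as well, because all 8 libraries share 1 fit. Levels are TMM CPM, counts scaled to a common library size with a correction for composition, and intervals of a level are exact 95% Poisson intervals that cover counting error only. All 10 erythroid markers were detected in every library, with summed levels of 22110 to 100180 CPM. Granulocyte markers summed to 7993 and 3119 CPM with hnRNPU hairpins 1 and 2, 38.7 and 46.8 CPM with Bloodlinc hairpins 1 and 2, 905 CPM with the Bloodlinc vector, and 1499, 96.6 and 936 CPM in the hnRNPU control, the Bloodlinc control and the empty vector library. Of the targets, Hnrnpu was at 325 and 373 CPM with its hairpins, against 588 CPM in its control library, though it was lower still in the 3 libraries of the Bloodlinc knockdown (214 to 294 CPM), and the Bloodlinc values open the next paragraph.

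Bloodlinc was a scarce RNA in every library, with 2 to 250 counts. It stood at 2.19 CPM (95% interval 1.63 to 2.89) and 1.75 CPM (1.32 to 2.28) with Bloodlinc hairpins 1 and 2, against 4.46 CPM (3.57 to 5.50) with the control hairpin. Both hairpin libraries lay below the control, and neither interval reached that of the control. With the Bloodlinc vector it stood at 5.46 CPM (4.80 to 6.18), against 1.26 CPM (0.940 to 1.65) with the empty vector. With hnRNPU hairpins 1 and 2 it stood at 1.18 CPM (0.143 to 4.27) and 3.15 CPM (1.36 to 6.21), from 2 and 8 counts, against 4.35 CPM (3.72 to 5.07) with that control hairpin. These hnRNPU intervals overlap the control's, and the 2 counts are under the 3 counts that serve as the detection floor, which is 1.77 CPM in that library. The 3 control libraries themselves differed 3.54-fold, with the empty vector lowest. The interval with the Bloodlinc vector overlapped those of both control hairpin libraries.

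Per kb of exon, Bloodlinc was at 6.57 CPM in the Bloodlinc control, 6.41 CPM in the hnRNPU control and 1.85 CPM in the empty vector library. It ranked 14, 15 and 33 among the 210 long intergenic noncoding RNAs tested, and stood at the 70.0, 70.3 and 47.8 percentile of 14607 genes. Slc4a1 stood far higher, with 2733, 1280.5 and 318 CPM per kb, ranks of 16, 27 and 54 among the 14607 genes.

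**Figure D1:**
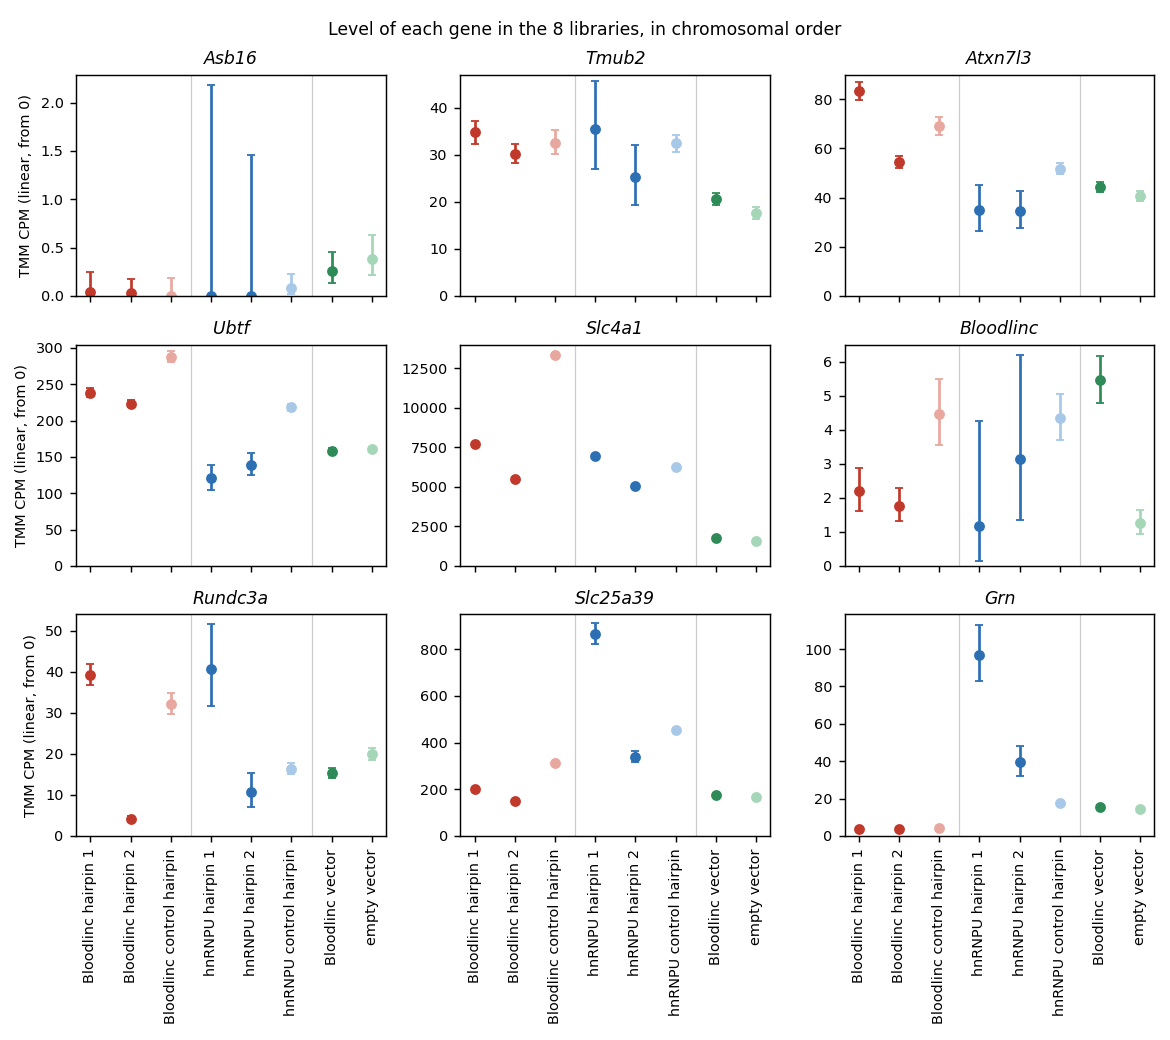
Level of each of the 9 genes in every library (TMM CPM on linear axes from 0), in chromosomal order, with points for single libraries and bars for exact 95% Poisson intervals; vertical lines part the 3 experiments. Slc4a1 is highest in the Bloodlinc control library, Grn and Slc25a39 in the library of hnRNPU hairpin 1, and Asb16 stays below 0.4 CPM in all libraries.

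The other neighbours lay below Slc4a1. Slc25a39, a mitochondrial carrier needed for glutathione import and heme synthesis, had 60.7 to 165 CPM per kb over the 3 control libraries. Ubtf, the architectural factor of ribosomal DNA transcription by RNA polymerase I, had 24.5 to 43.9 CPM per kb. Atxn7l3, an adaptor of the SAGA deubiquitinase, had 9.86 to 16.7 CPM per kb. The ranges of Slc4a1, Slc25a39, Ubtf and Atxn7l3 did not overlap, so their order was the same in each control. Below them the ranges overlapped: Tmub2, a membrane protein with a ubiquitin-like domain, had 6.91 to 12.8, Rundc3a, a RUN domain protein, 5.57 to 10.98, and Bloodlinc 1.85 to 6.57 CPM per kb. Grn, which encodes the secreted and lysosomal protein progranulin, had 1.15 to 5.04 CPM per kb and overlapped Bloodlinc. Asb16, of the ankyrin repeat and SOCS box family, was lowest, at 0 to 0.136 CPM per kb, with no overlap with Grn.

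Slc4a1 had the widest range over the control libraries among the 8 genes detected in all 3. It was at 13367 CPM in the Bloodlinc control, 6263 CPM in the hnRNPU control and 1555 CPM in the empty vector library, an 8.59-fold range. The median range over the 14238 genes above 0 in all 3 controls was 2.33-fold, and 90.3% of those genes had a narrower one than Slc4a1. Grn with 4.38-fold, Bloodlinc with 3.54-fold and Slc25a39 with 2.71-fold came next, and Ubtf, Atxn7l3, Tmub2 and Rundc3a lay between 1.70-fold and 1.97-fold. The range of Slc4a1 was 5.41-fold in CPM by plain gene totals and 4.93-fold with mitochondrial ribosomal RNA and unannotated IDs out of the totals, so its size depends on the scaling. The 9 erythroid markers other than Slc4a1 summed to 69406 CPM in the Bloodlinc control, 55321 CPM in the hnRNPU control and 20555 CPM in the empty vector library, and their part in the range was not tested. The controls belong to different experiments, and experiment and construct cannot be told apart here. In these bulk samples fewer cells of a type and less RNA per cell cannot be told apart either.

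The question of the Bloodlinc knockdown was whether neighbours fell with the RNA. Bloodlinc itself, Slc4a1 and Slc25a39 had the lowest values relative to the control, with log2 fold changes of −1.18, −1.02 and −0.83. No gene of the 9 passed the edgeR quasi-likelihood test at an adjusted p of 0.05, by which 0.124% of the 15355 genes tested were called. By the same test 15 genes rose and 4 fell in all, and 613 had an unadjusted p under 0.05. With both hnRNPU hairpin libraries left out of the fit, no gene was called. All 8 genes with a usable fold change had a negative one, though Tmub2 and Atxn7l3 turned positive under upper quartile scaling, with a median of −0.45 on the log2 scale, where 44.6% of all genes were below 0 and the median was 0.055. The sizes ranged from −1.18 for Bloodlinc to values within 0.005 of 0 for Tmub2 and Atxn7l3, and the 95% interval of each included 0. In 5 of the 8 both hairpin libraries lay below the control, namely Bloodlinc, Slc4a1, Slc25a39, Ubtf and Grn. Over all genes tested, 30.7% had both libraries below the control and 31.5% had both above it. DESeq2 called none of the 9 either. Set against the control hairpin library of the other target, 3 of the 8 genes were below 0.

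Bloodlinc, at the levels given above, had a fitted log2 fold change of −1.18, with an SE of 0.81 and an adjusted p of 1 by edgeR, and with −0.999 for hairpin 1 and −1.31 for hairpin 2. Hairpin 1 left Slc4a1 at 7709 CPM and hairpin 2 at 5507 CPM, against 13367 CPM with the control hairpin. Both hairpins lay below the control but well inside the 1555 to 13367 CPM spanned by the 3 controls. Its log2 fold change was −1.02 (95% interval −2.38 to 0.35; adjusted p = 1 by edgeR), but 0.0774 against the control hairpin library of the other target and −0.0958 against the 3 controls pooled. The hairpins gave −0.79 and −1.28 against this control, which was the highest library of the series for Slc4a1. The 9 other erythroid markers summed to 40057 and 35261 CPM with the Bloodlinc hairpins, against 69406 CPM with the control, and their part in the Slc4a1 values was not tested.

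Slc25a39 was at 200 and 148 CPM with the Bloodlinc hairpins, against 311 CPM with the control hairpin, so that both lay below it. The log2 fold change was −0.83 (SE 0.57; adjusted p = 1 by edgeR). Its partner across the 429 bp gap did not share this pattern between hairpins. Rundc3a was at 39.3 CPM with hairpin 1 and 4.05 CPM with hairpin 2, against 32.3 CPM with the control, so the hairpins lay on opposite sides. Hairpin 1 differed by 0.28 and hairpin 2 by −2.97 on the log2 scale, a 9.69-fold gap between libraries of the same group, and the fit of both gave −0.58 (SE 0.58; adjusted p = 1 by edgeR). With hairpin 1 left out, Rundc3a was called (log2 fold change −2.97; adjusted p = 0.0373 by edgeR), which rests on 1 hairpin library.

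The genes beyond Slc4a1 were closer to the control. Ubtf was at 239 and 223 CPM with the hairpins, against 288 CPM with the control, with a log2 fold change of −0.32 (SE 0.56). Atxn7l3 was at 83.2 and 54.4 CPM with the hairpins, against 68.9 CPM with the control, one on either side of it. Tmub2 was at 34.8 and 30.3 CPM, against 32.6 CPM with the control, again on either side. On the far flank Grn was at 3.55 and 3.47 CPM with the hairpins, against 4.00 CPM with the control, where the intervals overlapped. Against the control of the other target the same libraries gave Grn a log2 fold change of −2.32 (adjusted p = 0.00121 by edgeR). That control had 17.5 CPM of Grn and a granulocyte marker sum of 1499 CPM. Asb16 had 1 count with each hairpin and 0 counts with the control, all under the floor of 3 counts, and has no fold change here.

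**Figure D2:**
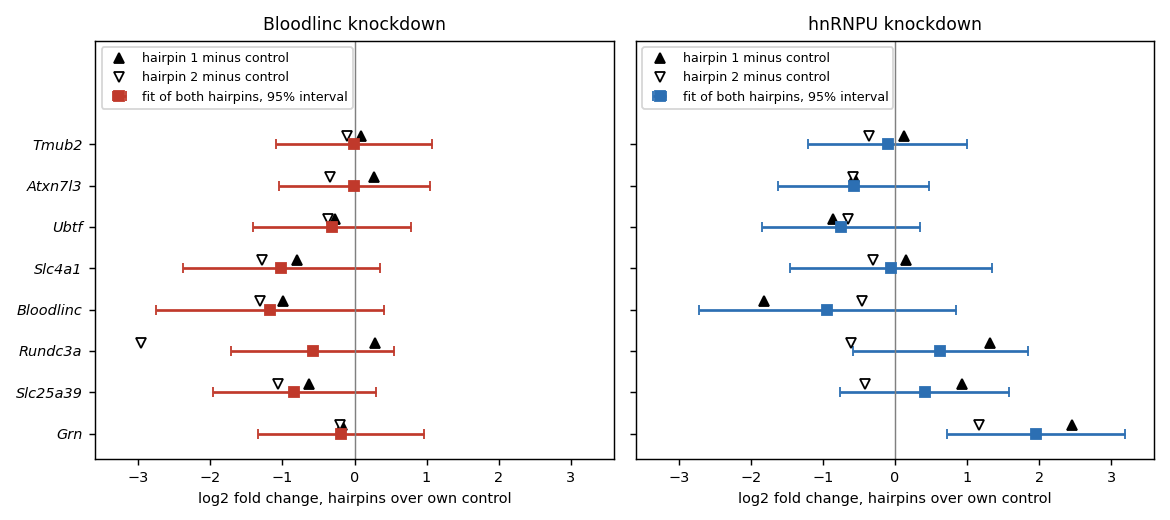
Log2 fold changes of 8 genes in the Bloodlinc and hnRNPU knockdowns, hairpins over their own control (squares with 95% intervals from the edgeR fit; triangles for each hairpin library minus the control). In the Bloodlinc knockdown every interval includes 0 and the Rundc3a hairpins lie at 0.28 and −2.97; in the hnRNPU knockdown the interval of Grn alone lies away from 0.

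With the hnRNPU hairpins, read from the 2 shallow libraries, Grn had the largest fitted change of the locus, and Bloodlinc, Ubtf and Atxn7l3 lay below the control with both hairpins. Again no gene of the 9 was called by edgeR, with 0.879% of all genes tested called in that comparison (89 rose and 46 fell; 1518 had an unadjusted p under 0.05). Of the 8 genes with a fold change 5 were below 0, with a median of −0.08, where 53.4% of all genes were below 0 with a median of −0.09. With DESeq2 the median of all genes shifted to 0.10 and 3 of the 8 genes were below 0. Both hairpins lay below the control in 3 of the 8, Bloodlinc, Ubtf and Atxn7l3, as in 42.3% of all genes. Both lay above it in 1, Grn, as in 28.6% of all genes.

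Grn was at 96.9 CPM (82.7 to 113) and 39.4 CPM (32.1 to 47.9) with hnRNPU hairpins 1 and 2, against 17.5 CPM (16.2 to 18.9) with the control hairpin. Both hairpins lay above the control and above every other library of the series, without overlap of the counting intervals. The log2 fold change was 1.95 (95% interval 0.72 to 3.19; unadjusted p = 0.00201, adjusted p = 0.133 by edgeR), with 2.46 for hairpin 1 and 1.17 for hairpin 2. It missed the threshold over all genes.

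Grn is strongly expressed in myeloid cells, and the granulocyte marker list was high and low in the same libraries. All 8 granulocyte markers (Mpo, Elane, Prtn3, S100a8, S100a9, Ctsg, Ngp and Camp) were detected in every library, and their sum was 7993 and 3119 CPM with the hnRNPU hairpins, against 1499 CPM with the control. The members did not differ alike. S100a9 was at 3178 and 1070 CPM with the hairpins, against 436 CPM with the control, and Ngp at 1602 and 492 CPM, against 158 CPM; S100a8 and Camp also lay above the control with both hairpins. Mpo was at 435 and 571 CPM, against 389 CPM with the control, Prtn3 at 68.0 and 71.7 CPM, against 58.8 CPM, Ctsg at 35.5 and 39.4 CPM, against 32.1 CPM, and Elane at 26.6 and 31.9 CPM, against 27.0 CPM. The 10 macrophage markers summed to 1548 and 474 CPM with the hairpins, against 237 CPM with the control. Lyz2 made up most of that sum, with 1472 and 443 CPM against 216 CPM. Csf1r was at 44.9 and 13.0 CPM, against 12.5 CPM with the control, Adgre1 at 17.1 and 11.4 CPM, against 4.64 CPM, and Cd68 at 12.4 and 3.55 CPM, against 3.15 CPM. At 0 counts were 5 of the 10 with hairpin 1 (Mrc1, C1qa, C1qb, C1qc and Cd5l), 3 with hairpin 2 (C1qa, C1qc and Cd5l) and 2 in the control (C1qa and Cd5l), where the floor of 3 counts in the hairpin libraries is 1.77 and 1.18 CPM. In the Bloodlinc libraries, where Grn was at 3.47 to 4.00 CPM, the granulocyte sum was 38.7 to 96.6 CPM. The part of these cells in the Grn values was not tested.

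**Figure D3:**
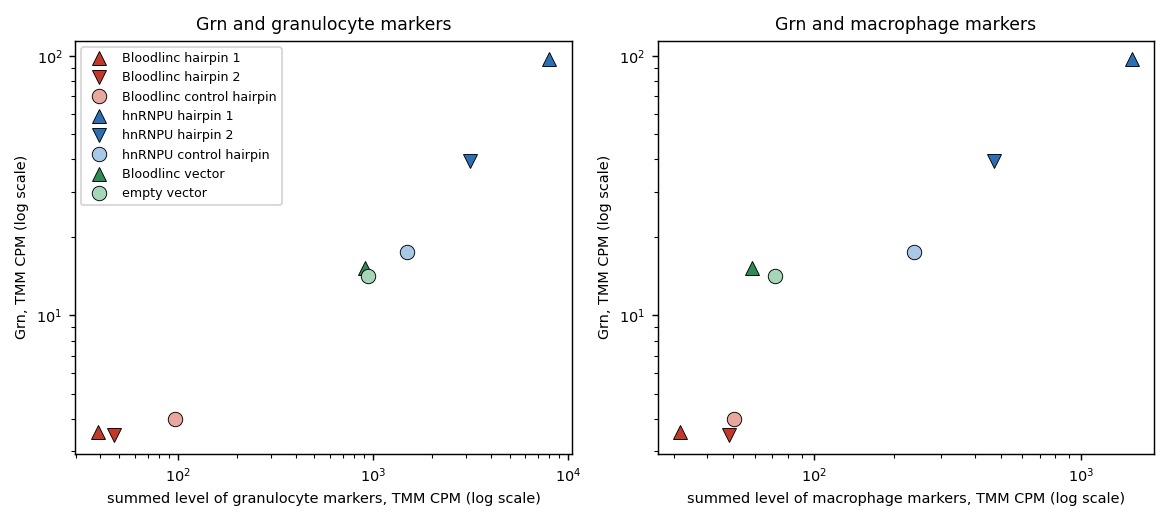
Level of Grn in each of the 8 libraries against the summed levels of 8 granulocyte markers (left) and 10 macrophage markers (right), in TMM CPM on log axes; each point is 1 library. The hnRNPU hairpin libraries are highest for Grn and for both sums, and the 3 libraries of the Bloodlinc knockdown are lowest for Grn and the granulocyte sum.

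Slc25a39 and Rundc3a, the pair between Bloodlinc and Grn, were split by the hnRNPU hairpins. Slc25a39 was at 865 CPM with hairpin 1 and 340 CPM with hairpin 2, against 453 CPM with the control, and hairpin 1 was its highest library of the series. Rundc3a was at 40.8 and 10.6 CPM, against 16.4 CPM with the control. For both genes hairpin 1 lay above the control and hairpin 2 below it, and the fits gave 0.41 (SE 0.60; adjusted p = 0.874 by edgeR) for Slc25a39 and 0.63 (SE 0.62; adjusted p = 0.805) for Rundc3a on the log2 scale.

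Slc4a1 lay on either side of its control too. It was at 6957 and 5051 CPM with the hnRNPU hairpins, against 6263 CPM with the control, with a log2 fold change of −0.06 (95% interval −1.46 to 1.34; adjusted p = 0.991 by edgeR), a sign that turned under other scalings. The interval is wide enough to hold the value seen in the Bloodlinc knockdown. The 9 other erythroid markers summed to 93224 and 49290 CPM with these hairpins, against 55321 CPM with the control. For Bloodlinc the fitted change was −0.94 (SE 0.91; adjusted p = 0.801 by edgeR), with −1.81 and −0.46 for the hairpins.

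On the 3′ side of Slc4a1, Ubtf was at 121 and 139 CPM with the hnRNPU hairpins, against 219 CPM with the control. Both lay below each of the 3 control libraries of the series, and the log2 fold change was −0.75 (SE 0.56; adjusted p = 0.716 by edgeR). Atxn7l3 was at 34.9 and 34.7 CPM, against 51.8 CPM with the control, also below all 3 controls, with −0.58 (SE 0.54; adjusted p = 0.787 by edgeR). Tmub2 was at 35.5 and 25.2 CPM, against 32.5 CPM with the control, on either side of it. Asb16 had 0 counts with each hnRNPU hairpin, where the floor of 3 counts is 1.77 and 1.18 CPM, and 3 counts with the control.

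Tested directly as a difference of effects, Bloodlinc knockdown minus hnRNPU knockdown, none of the 9 genes was called by edgeR, against 0.326% of all genes tested. Grn had the difference with the smallest p, −2.14 (SE 0.83; unadjusted p = 0.0107, adjusted p = 0.638 by edgeR). Slc25a39 had −1.24 (SE 0.84), Rundc3a −1.20 (SE 0.84) and Slc4a1 −0.96 (SE 1.01). Atxn7l3 had 0.57 (SE 0.76), Ubtf 0.43 (SE 0.80) and Tmub2 0.099 (SE 0.79). Apart from that of Grn, all these intervals include 0, and Asb16 has no fold change here. Over all genes 38.0% were below 0 and the median was 0.297. For Bloodlinc itself the difference was −0.24 (95% interval −2.69 to 2.21), an interval wider than the value of either knockdown.

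The overexpression pair asked the reverse question, whether neighbours rise when Bloodlinc is supplied. It has 1 library per arm and no test. Bloodlinc was 2.05 higher on the log2 scale with the vector (interval of the count ratio 1.68 to 2.58), and it was the only gene of the 9 past 2-fold, a size that 1.75% of the 15355 genes passed (57 higher and 212 lower). Slc4a1 was at 1743 CPM with the Bloodlinc vector, against 1555 CPM with the empty vector, a log2 difference of 0.16 (interval 0.15 to 0.18). The counting interval excludes 0, but it leaves out any spread between cultures, and the 2 hairpin libraries of 1 target differed for the same gene by 1.40-fold and 1.38-fold. Against the mean of the 3 control libraries Slc4a1 was lower with the vector, by a log2 difference of −1.54.

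The differences of the remaining neighbours were also small. Tmub2 was at 20.6 CPM with the vector, against 17.6 CPM without (0.23; interval 0.09 to 0.37). Rundc3a was at 15.3 CPM with the vector, against 19.9 CPM without (−0.38; interval −0.53 to −0.23). These were the 2 largest differences of the 7 neighbours above 1 CPM, which ran from −0.38 to 0.23 with a median of 0.11, against 0.0054 for all genes. Slc25a39 had 177 CPM with the Bloodlinc vector and 167 CPM with the empty vector. Ubtf had 158 CPM with the vector and 160 CPM with the empty vector. Atxn7l3 had 44.3 CPM with the vector and 40.6 CPM with the empty vector, and Grn 15.3 CPM with the vector and 14.2 CPM with the empty vector. Asb16 reached its highest counts in this pair, 12 with the vector and 16 with the empty vector, and it entered the tests through these libraries.

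The window was widened to 500 kb on each side of Bloodlinc, which holds 45 further annotated genes, 17 of them tested. In the Bloodlinc knockdown 5 of the 17 were below their control and 12 above, with a median log2 fold change of 0.30, and none was called. In the hnRNPU knockdown 10 were below and 7 above, with a median of −0.42, and none was called. With the Bloodlinc vector 5 were below and 12 above, with a median of 0.05 and none past 2-fold. The 8 genes from Tmub2 to Grn, the target Bloodlinc among them, were thus all below 0 in the Bloodlinc knockdown (6 of 8 under upper quartile scaling). Only 3 of the 8 were below 0 against the control hairpin library of the other target, and 5 against the 3 controls pooled. Those of the flanks ran from −1.78 to 2.23 against the Bloodlinc control. No test of this pattern along the chromosome was made.

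**Figure D4:**
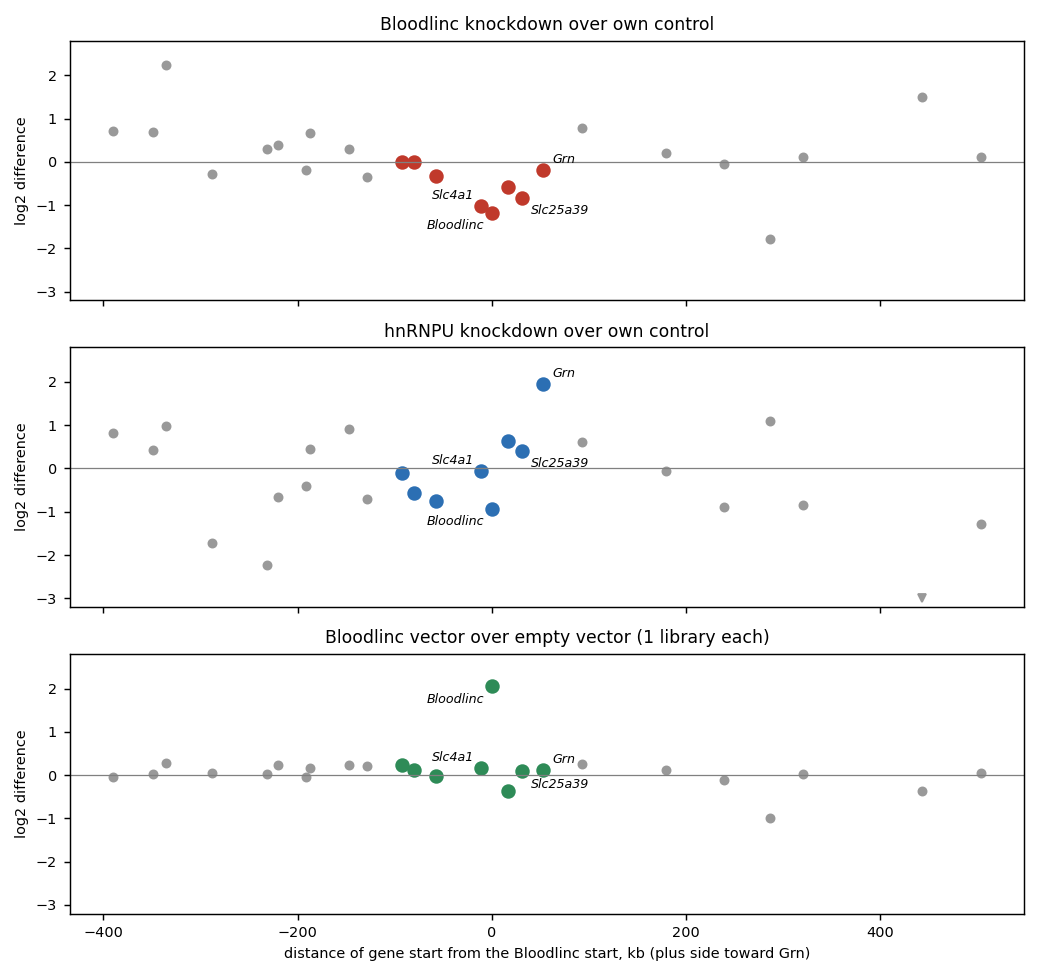
Log2 difference of each tested gene against the distance of its start from the start of Bloodlinc, in kb with Grn on the plus side: 8 genes around Slc4a1 in colour and 17 further genes of the 500 kb flanks in grey, without Asb16. In the Bloodlinc knockdown the lowest coloured points are Bloodlinc (−1.18) and Slc4a1 (−1.02). A grey triangle at the lower edge of the hnRNPU panel stands for a value below the axis (−5.26, with an SE of 6.26). With the vector only Bloodlinc (2.05) is past 1. Grey points were not put to the floor that left out Asb16.

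The levels of Slc4a1 and Bloodlinc had a weak relation over the series. Their Pearson correlation on the log2 CPM scale was 0.11 over the 8 libraries and 0.25 over the 6 without the hnRNPU hairpins, libraries that share experiments and differ in depth. Per kb, there were 44.3 Slc4a1 counts for each Bloodlinc count (95% interval 39.1 to 50.4) with the Bloodlinc vector, against 172 (131 to 230) with the empty vector. The ratio was 488 (370 to 658) and 437 (335 to 581) with Bloodlinc hairpins 1 and 2, against 416 (337 to 520) with their control, where all 3 intervals overlap. The ratio with the Bloodlinc hairpins was within counting error of its control. With the vector it was lower beyond counting error, but Bloodlinc had 250 counts there, against 52 with the empty vector. As Bloodlinc was supplied, that lower ratio does not bear on how the levels of the genes relate.

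Among the genes whose levels were most like those of Slc4a1 were Gpx1, Rab8b, Ibtk and Fam210b, with correlations of 0.989 to 0.991 over the 8 libraries, out of 8498 genes of at least 5 CPM. Gpx1, which encodes a glutathione peroxidase, was at 2465 and 2223.5 CPM with the Bloodlinc hairpins, against 4264 CPM with the control. It was at 2189 and 1699 CPM with the hnRNPU hairpins, against 2439 CPM with the control, and at 783 CPM with the Bloodlinc vector, against 747 CPM with the empty vector. Like Slc4a1, Gpx1 was highest in the Bloodlinc control library and lowest in the empty vector library.

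Over the 8 libraries Tmub2 was the most like Slc4a1 among the neighbours, with a correlation of 0.914, a rank of 177 among the 8498 genes, and with 0.937 over 6. Ubtf had 0.509 over 8 libraries but 0.993 over the 6 without the hnRNPU hairpins, the highest of the neighbours there. Atxn7l3 had 0.492 and 0.843. Grn had −0.22 and −0.68. The genes most like Bloodlinc over the 8 libraries were Trim39, Ubqln1, Tada2b, Nsd2 and BC030867, with lower correlations of 0.745 to 0.811. Over the 6 without the hnRNPU hairpins, where Bloodlinc had 2 and 8 counts, these were 0.622 for BC030867 to 0.730 for Trim39. BC030867 is itself the next gene beyond Asb16, 3555 bp from it. It was at 13.6 and 9.24 CPM with the Bloodlinc hairpins, against 14.45 CPM with the control, and at 6.50 and 12.2 CPM with the hnRNPU hairpins, against 15.4 CPM with the control.

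**Figure D5:**
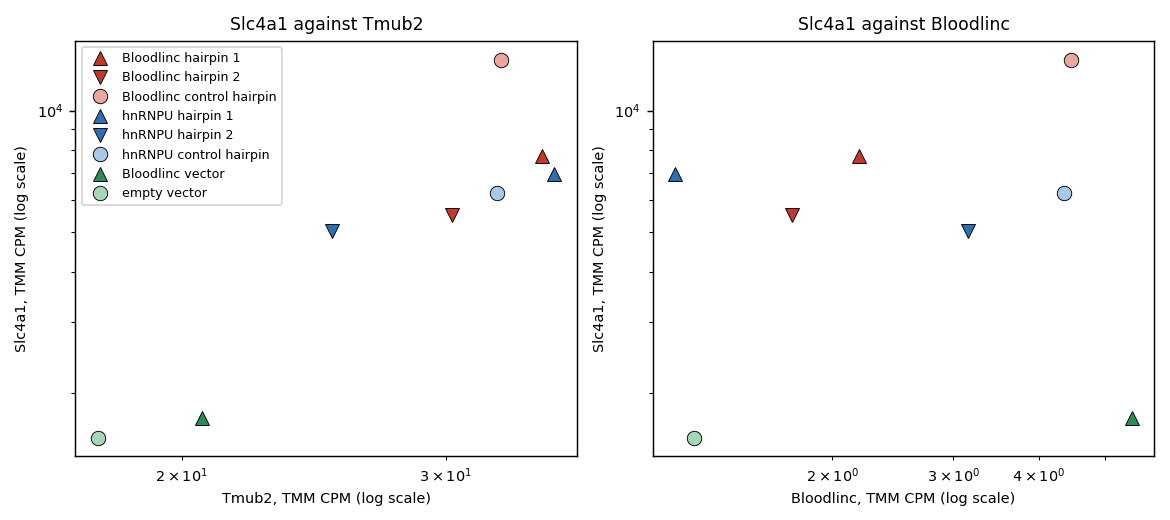
Slc4a1 against Tmub2 (left) and against Bloodlinc (right) in the 8 libraries, in TMM CPM on log axes; each point is 1 library. With the Bloodlinc and empty vectors Tmub2 and Slc4a1 are both at their lowest (correlation 0.914 over all libraries), and these libraries have nearly the same Slc4a1 level at 5.46 and 1.26 CPM of Bloodlinc.

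Partners of these genes in other parts of the genome were described from lists by function. Of 20 genes for the band 3 complex and its membrane anchors, 19 were below the control in the Bloodlinc knockdown, with a median log2 fold change of −0.56 against 0.055 for all genes, where 44.6% of all genes were below 0, and none was called by edgeR. Without hairpin 1 the median was −0.85. The count was also 19 with DESeq2 and under upper quartile scaling, but 11 against the control hairpin library of the other target and 9 against the 3 controls pooled, so it rests on the one Bloodlinc control library. Mpp1, a scaffold protein that binds protein 4.1, was at 414 and 311 CPM with the hairpins, against 733 CPM with the control (−1.02; SE 0.59). Epb42, which encodes the band 3 partner protein 4.2, was at 887 and 996 CPM, against 1698 CPM with the control (−0.85; SE 0.60). Slc4a1, which is not in the list, had −1.02, and none of these values passed the test.

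In the hnRNPU knockdown 15 of the 20 were below the control, with a median of −0.59, and 2 fell. Over all genes 53.4% were below 0, the median was −0.09 and 0.879% were called, 46 of them lower. Aqp1, the water channel of the red cell, was at 4.73 and 33.5 CPM with the hairpins, against 80.1 CPM with the control (log2 fold change −2.02; adjusted p = 0.0389 by edgeR). Icam4, an adhesion protein of the band 3 complex, was at 13.0 and 18.5 CPM, against 61.6 CPM with the control (log2 fold change −1.95; adjusted p = 0.0462 by edgeR). Both hairpins lay below the control for each. Neither call held with DESeq2 (adjusted p of 0.401 for Aqp1 and 0.112 for Icam4), under upper quartile scaling (0.0517 and 0.082 by edgeR) or with any 1 of the 4 hairpin libraries left out (0.0616 to 1 for Aqp1 and 0.096 to 1 for Icam4). Slc4a1, outside the list, had a log2 fold change of −0.06 in the same knockdown.

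For Ubtf, 13 genes of the RNA polymerase I machinery were tested. With the Bloodlinc hairpins 7 of the 13 were below the control, with a median of −0.01 that came to −0.23 without hairpin 1 and 0.19 without hairpin 2. In the hnRNPU knockdown 12 of the 13 were, with a median of −0.63, beside −0.75 for Ubtf itself and 53.4% of all genes below 0, and none was called in either. That median was −0.35, with 10 of the 13 below the control, without hnRNPU hairpin 1 and −1.19 without hairpin 2. Rrn3, which recruits the polymerase to ribosomal DNA, was at 28.4 and 54.8 CPM with the hnRNPU hairpins, against 83.0 CPM with the control (−0.99; SE 0.54; adjusted p = 0.556 by edgeR). Of 7 genes of the SAGA deubiquitinase tested for Atxn7l3, 3 were below the control in each knockdown, with medians of 0.17 in the Bloodlinc and 0.25 in the hnRNPU knockdown, and none was called. The Bloodlinc median turned to −0.03 without Bloodlinc hairpin 1. It was also below 0 against the control hairpin library of the other target (−0.061) and against the 3 controls pooled (−0.036). The hnRNPU median turned to −0.23 without hnRNPU hairpin 2 and −0.16 under the replicate block. Eny2, a subunit of that module, was the farthest down with the hnRNPU hairpins, at 9.46 and 18.1 CPM, against 44.3 CPM with the control (−1.66; SE 0.54; adjusted p = 0.148 by edgeR).

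For Slc25a39, 8 mitochondrial carriers and transporters of erythroid cells were tested. With the Bloodlinc hairpins 7 of the 8 were below the control, with a median of −0.56, where 44.6% of all genes were below 0. In the hnRNPU knockdown all 8 were below the control, with a median of −0.93, where 53.4% of all genes were below 0. Upper quartile scaling left 6 below the control with the Bloodlinc hairpins and 7 with the hnRNPU hairpins, and none was called in either knockdown. The Bloodlinc median was −0.88 without hairpin 1 and −0.26 without hairpin 2. It was −0.29 against the control hairpin library of the other target and −0.25 against the 3 controls pooled, with 6 of the 8 below 0 in each, so its size depends on the control. Slc25a37, or mitoferrin 1, which brings iron into mitochondria for heme, was at 1451 and 703 CPM with the Bloodlinc hairpins, against 2425 CPM with the control (−1.17; SE 0.62; adjusted p = 1 by edgeR). Slc25a38, the glycine carrier of heme synthesis, was at 25.4 and 55.2 CPM with the hnRNPU hairpins, against 126 CPM with the control (−1.63; SE 0.53; adjusted p = 0.142 by edgeR). Slc25a39 lay with these carriers in the Bloodlinc knockdown, at −0.83. In the hnRNPU knockdown its fit gave 0.41 (SE 0.60), but the hairpins lay on opposite sides of the control, at 0.93 for hairpin 1 and −0.42 for hairpin 2.

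For Grn, 10 genes for progranulin and lysosome partners were tested. Reduction of Bloodlinc left 4 of the 10 below the control, with a median of 0.26. In the hnRNPU knockdown 1 was (0 with DESeq2), with a median of 0.74, and none was called in either. Against the control hairpin library of the other target 4 were below in the hnRNPU knockdown, with a median of 0.31. There 2 were called higher by edgeR, and in the Bloodlinc knockdown 1 was called lower. Against the 3 controls pooled 3 were below in the hnRNPU knockdown, with a median of 0.41, so this pattern depends on the control. Leaving out hairpin 2 brought the Bloodlinc median to 0.0607, and leaving out hairpin 1 brought the hnRNPU median to 0.43. Sort1, the sortilin receptor that takes up progranulin, was at 157 and 83.9 CPM with the hnRNPU hairpins, against 36.6 CPM with the control (1.72; SE 0.59; adjusted p = 0.183 by edgeR). In the Bloodlinc libraries Sort1 was at 3.81 and 4.51 CPM with the hairpins, against 3.64 CPM with the control. Ctsd, of the same list, was not low there. It was at 825 and 877 CPM with the Bloodlinc hairpins and 881 CPM with their control, against 450 CPM in the hnRNPU control. The part of granulocytes in the Sort1 values was not tested.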

How the data were processed

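Raw counts per gene, 1 table per library with 37620 Ensembl gene IDs, were deposited by the authors without normalization. Per the submitters' processing notes, reads were handled with TopHat2 2.0.11, HTSeq and the mm9 build, and, per the labels' protocols, libraries were strand-specific (dUTP) from RNA depleted of ribosomal RNA. The HTSeq strand setting and the annotation release are not given in the sources used here. GENCODE M21 on GRCm38 named 87.4% of the IDs and gave positions and exon lengths.

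All 8 libraries, in 6 groups by their labels, entered 1 edgeR 4.0.16 fit (R 4.3.3): TMM scaling, filterByExpr (15355 genes kept), quasi-likelihood F-tests, and Benjamini-Hochberg adjustment over all genes with a threshold of 0.05. The fit had 2 residual degrees of freedom, and the single control libraries were assumed to vary like the hairpins. Its prior degrees of freedom came to 397 and its common dispersion to 0.145. The SE is the log2 fold change over the square root of F. Log2 differences of single libraries used a prior count of 2, and for the vector pair the interval is that of an exact binomial test on the counts of both libraries, given their sum. The shares outside genes are of counts in genes, ambiguous or outside genes. DESeq2 1.42.0, other scalings, filters and controls, a replicate block and left-out libraries were alternatives.

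The 9 genes were named in every comparison. Beside them, up to 4 genes of at least 5 CPM with the largest change in each list were eligible, as were the 5 genes most correlated with Slc4a1 and with Bloodlinc. One gene eligible by these rules is not reported here. Members and lists were chosen with earlier results of these data known. Fold changes of Asb16 in the knockdowns were left out for its counts of 3 or fewer.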

Additional observations from a re-analysis of the deposited data

Results flagged for a closer look

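Of the 8 genes with a fold change, Grn was the only one with both hairpin libraries of one knockdown below their control and both of the other above theirs. It was at 3.55 and 3.47 CPM with the Bloodlinc hairpins, below the 4.00 CPM of their control, and at 96.9 and 39.4 CPM with the hnRNPU hairpins, above the 17.5 CPM of theirs. The difference of the effects on the log2 scale was −2.14 (SE 0.83; unadjusted p = 0.0107, adjusted p = 0.638 by edgeR), so it did not pass over all genes. The Bloodlinc side of it is small (−0.19; SE 0.59), and the counts behind it are 81 and 107 with the hairpins and 78 with the control. The granulocyte marker sums were also higher with the hnRNPU hairpins and lower with the Bloodlinc hairpins than in the control of each, and their part in it was not tested.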

How the results depend on the processing

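No member gene was called under the other tool, scalings or filter, while Grn was called against the other control (−2.32 in the Bloodlinc and 4.08 in the hnRNPU knockdown) and Rundc3a without Bloodlinc hairpin 1. Counts of genes called moved from 19 in the Bloodlinc knockdown to 5 with DESeq2, 1043 with the other control, and 0 with pooled controls, with its 3 libraries alone, under the replicate block and without both hnRNPU hairpins (504 at an unadjusted p under 0.05). In the hnRNPU knockdown 135 became 2340 with the other control, 7 with pooled controls and 61 under the replicate block. For the difference of knockdowns 50 became 22 with DESeq2 and 16 under the replicate block. Leaving out each hairpin library in turn gave 0 to 63, 7 to 121 and 6 to 37 for the Bloodlinc knockdown, the hnRNPU knockdown and their difference. The deviations of same-numbered hairpin libraries had a correlation of −0.07. From 2 libraries per target this cannot settle whether the hairpin numbers pair the samples. The replicate block called no member. The cause of these moves was not tested.

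The following signs turned. In the hnRNPU knockdown Tmub2 was 0.0507 with DESeq2, 0.0509 with its size factors, 0.0858 with upper quartile scaling, 0.13 with pooled controls and 0.0673 in a fit of 3 libraries, and Slc4a1 was 0.0955, 0.0955, 0.13 and, in a fit of 3 libraries, 0.11. The difference of knockdowns for Tmub2 was −0.0827 with DESeq2, −0.0828 with its size factors and −0.0844 with upper quartile scaling. In the Bloodlinc knockdown upper quartile scaling gave 0.0014 for Tmub2 and 0.0023 for Atxn7l3. The other control gave 0.0045 for Tmub2, 0.41 for Atxn7l3, 0.0801 for Ubtf, 0.0774 for Slc4a1 and 0.40 for Rundc3a, and −0.35 for Rundc3a in the hnRNPU knockdown. Pooled controls gave 0.24 for Tmub2, 0.36 for Atxn7l3 and 0.0564 for Ubtf. Without both hnRNPU hairpins, a setting chosen after seeing the data, as was leaving out mitochondrial ribosomal RNA, Tmub2 was 0.0135 and Atxn7l3 0.0149.

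With each hairpin library left out in turn, the Bloodlinc knockdown gave −0.083 to 0.0928 for Tmub2, −0.32 to 0.27 for Atxn7l3 and −2.97 to 0.28 for Rundc3a. The hnRNPU knockdown gave −0.63 to 1.31 for Rundc3a, −0.42 to 0.93 for Slc25a39, −0.32 to 0.15 for Slc4a1 and −0.37 to 0.12 for Tmub2. Their difference gave −0.68 to 0.70 for Bloodlinc, −3.56 to 0.0732 for Rundc3a and −0.13 to 0.39 for Tmub2. Against the mean of the 3 control libraries the overexpression differences were −0.69 for Slc25a39, −0.45 for Ubtf, −0.36 for Tmub2, −0.25 for Atxn7l3, 0.61 for Grn and 0.89 for Bloodlinc. Depth limits Asb16, at 0 to 3 counts in the 6 hairpin and control hairpin libraries, and Bloodlinc, at 2 and 8 counts with the hnRNPU hairpins.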
